A study of Mus musculus with 4 samples.

Results

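Ccl17, Ccl22 and Ccl24 encode CC chemokines, small secreted proteins that draw leukocytes along a gradient. All probe sets annotated to exactly 1 of these symbols were taken, which gave 1 probe set for each of the 3 genes, among 18193 genes with a probe set of their own. CCL17 and CCL22 are ligands of the receptor CCR4 and attract T helper type 2 cells and regulatory T cells, and dendritic cells (DCs) are a well-known source of both. CCL24, also called eotaxin-2, is a ligand of CCR3 and attracts eosinophils, and in the mouse it is known as a product of macrophages activated by the type 2 cytokines IL-4 and IL-13. GM-CSF, the growth factor of these cultures, signals through the kinase JAK2 and the factor STAT5, and IL-4 and IL-13 signal through STAT6.

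The study asked how liver X receptors (LXRs), oxysterol-activated nuclear receptors, bear on DC chemotaxis. Bone marrow of C57/BL6 mice was grown for 6 to 7 days in GM-CSF at 20 ng/mL, and non-adherent cells were enriched with beads for CD11c, an integrin of DCs and of some macrophages. The 4 groups, with 1 array each, were LXR-DKO LPS, LXR-DKO control, WT LPS and WT control. LXR-DKO cells lacked LXRα and LXRβ together, WT cells had both, and each received GM-CSF at 10 ng/mL for 24 h, either with lipopolysaccharide (LPS, which is sensed by Toll-like receptor 4) at 100 ng/mL or alone as the control. The cultures hold every cell type that passed the CD11c beads, and the age, sex and number of mice behind each were not given in the sources used here.

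Since a group has 1 array, no difference has a replicate check and no test was made, and precision is limited by how few arrays there are. Values are array signals in arbitrary units on a linear scale, scaled by the authors to a common mean. A signal under 28.9, the median over all arrays, counts as below the floor, and a ratio against such a value is computed against 28.9 and given as "at least". The only internal error is the SD of log2 ratios between probe sets that share a gene, and it does not cover the spread between cultures or mice. It was 0.42 for LPS over control in LXR-DKO cells, 0.29 in WT cells, 0.54 for LXR-DKO over WT with LPS and 0.45 without. The targeted gene Nr1h3, which encodes LXRα, had signals of 27.0 and 40.4 in LXR-DKO LPS and LXR-DKO control, against 54.5 and 108.6 in WT LPS and WT control, by a probe set whose place relative to the deleted part is not known here. The X-inactivation transcript Xist had signals of 2090.4 and 2750.0 in LXR-DKO LPS and control, against 22.7 and 30.8 in WT LPS and control. The Y-linked Eif2s3y had 384.3 and 279.6 in LXR-DKO LPS and control, against 721.0 and 736.6 in WT LPS and control. These sex-linked transcripts thus differed between the genotypes, and Eif2s3y was above the floor in both. Effects of the sex of the donor mice cannot be told apart from genotype. The 3' to 5' signal ratio of the Gapdh control probe sets, a sign of RNA quality, lay between 0.757 and 0.842 on the 4 arrays.

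Ccl17 and Ccl22 lie close together on mouse chromosome 8, with Cx3cl1 as the only protein-coding gene between them, and Ccl24 lies on chromosome 5. No promoter sequence was at hand for Ccl24, so the 250 bases before the RefSeq starts are shown for Ccl17 and Ccl22. They are from RefSeq for GRCm38.p6, plus strand, at chr8:94810203-94810452 for Ccl17 and chr8:94745434-94745683 for Ccl22, with matches to any of 7 motifs in capitals.
Ccl17: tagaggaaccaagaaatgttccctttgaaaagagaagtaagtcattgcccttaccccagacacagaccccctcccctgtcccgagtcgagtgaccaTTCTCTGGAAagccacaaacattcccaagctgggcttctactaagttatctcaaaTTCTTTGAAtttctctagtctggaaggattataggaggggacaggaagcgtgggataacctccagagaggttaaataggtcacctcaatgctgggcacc
Ccl22: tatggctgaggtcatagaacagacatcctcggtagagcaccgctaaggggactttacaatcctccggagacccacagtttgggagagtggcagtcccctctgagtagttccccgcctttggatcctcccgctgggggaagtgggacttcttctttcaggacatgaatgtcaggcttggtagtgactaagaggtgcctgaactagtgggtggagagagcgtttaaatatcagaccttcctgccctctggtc
The motifs, searched on both strands, were STAT5 (TTCNNNGAA), STAT6 (TTC and GAA with 4 bases between), AP-1 (TGANTCA), an ETS and IRF composite (GGAA and GAAA with 2 bases between), the interferon response core (GAAA repeated with 2 bases between), the LXR repeat (AGGTCA repeated with 4 bases between) and kappaB. The Ccl17 window held 1 STAT6 match, first base at -154 from the start, and 1 STAT5 match, first base at -99, and the matches do not overlap. Of 32851 RefSeq promoter windows of this length, 5.85% held the STAT6 letters and 7.02% the STAT5 letters. The Ccl22 window held 0 matches to the 7 motifs, which says only that these letters are not in these bases.

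Ccl17 was highest in LXR-DKO cells and differed little with LPS there. Its signal was 8268.3 in LXR-DKO LPS, 7194.6 in LXR-DKO control, 2851.2 in WT LPS and 935.0 in WT control. The LXR-DKO arrays lay above both WT arrays, and the order of the groups was that of this list. LXR-DKO LPS and LXR-DKO control differed by less than the spread between probe sets, and each other step in that order exceeded 0.54 on the log2 scale, the largest of those spreads.

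Ccl22 followed the same order with a wider step between the LXR-DKO cultures. Its signal was 8635.0 in LXR-DKO LPS, 3948.8 in LXR-DKO control, 1595.2 in WT LPS and 509.8 in WT control. Each step in this order exceeded 0.54 on the log2 scale. Among the 9623 genes that reached the floor on every array, 7.02% had this order of signals.

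Ccl24 was measured in LXR-DKO cells and not above the floor in WT cells. Its signal was 621.4 in LXR-DKO LPS and 642.3 in LXR-DKO control, against 3.4 in WT LPS and 8.9 in WT control. The LXR-DKO values are alike and the WT values, both below the floor, have no order.

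**Figure D1:**
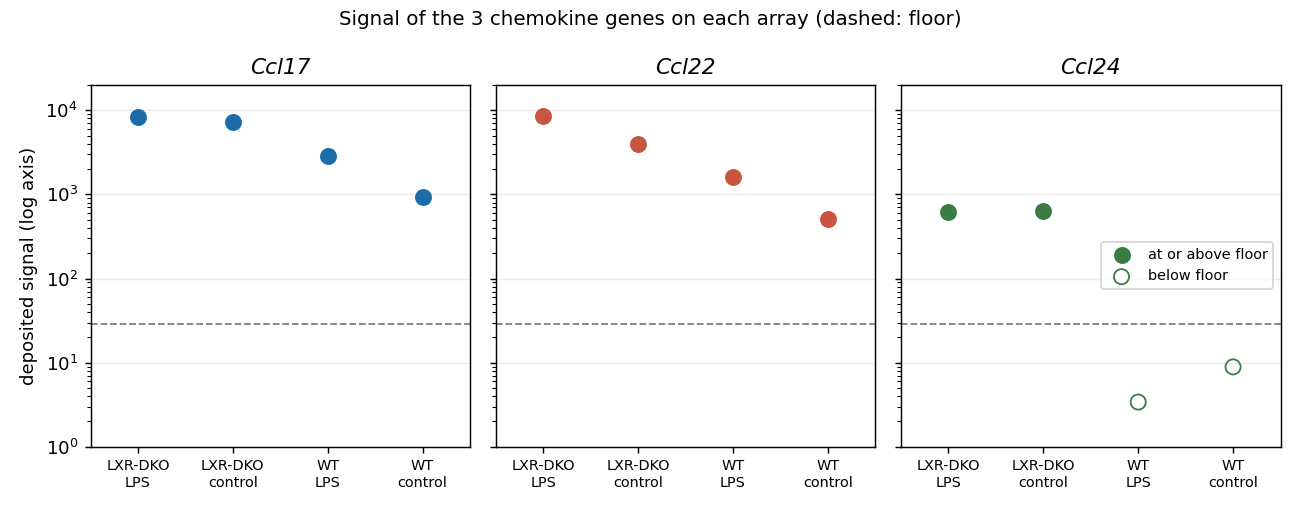
Deposited signal (log axis) of Ccl17, Ccl22 and Ccl24 on the 4 arrays, 1 point per array, with the floor of 28.9 as a dashed line and open points below it. Ccl17 and Ccl22 descend from LXR-DKO LPS at the left to WT control at the right, while Ccl24 is at 621.4 and 642.3 in LXR-DKO and below the floor in WT.

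The genotype comparison set LXR-DKO cells against WT cells in each condition, and all 3 chemokine genes were higher in LXR-DKO cells in both. Without LPS, Ccl17 was 7.69-fold higher in LXR-DKO cells (log2 ratio 2.94) and Ccl22 7.75-fold (2.95), each over 6 times the spread between probe sets. Ccl24 stood at least 22.2-fold higher (at least 4.47). Of 11728 genes measured without LPS, 12.7% were 2-fold or more higher in LXR-DKO cells and 9.28% were lower by as much. The median log2 ratio of the measured genes was 0.045.

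With LPS the ratios of Ccl17 and Ccl22 were smaller. Ccl17 was 2.90-fold higher in LXR-DKO cells (log2 ratio 1.54), Ccl22 5.41-fold (2.44) and Ccl24 at least 21.5-fold (at least 4.43). Of 12014 genes measured with LPS, 17.8% were 2-fold or more higher in LXR-DKO cells and 8.76% lower by as much. In both conditions together, 10.3% of 11264 genes were 2-fold or more higher in LXR-DKO cells, the share against which the 3 of 3 here are to be read.

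**Figure D2:**
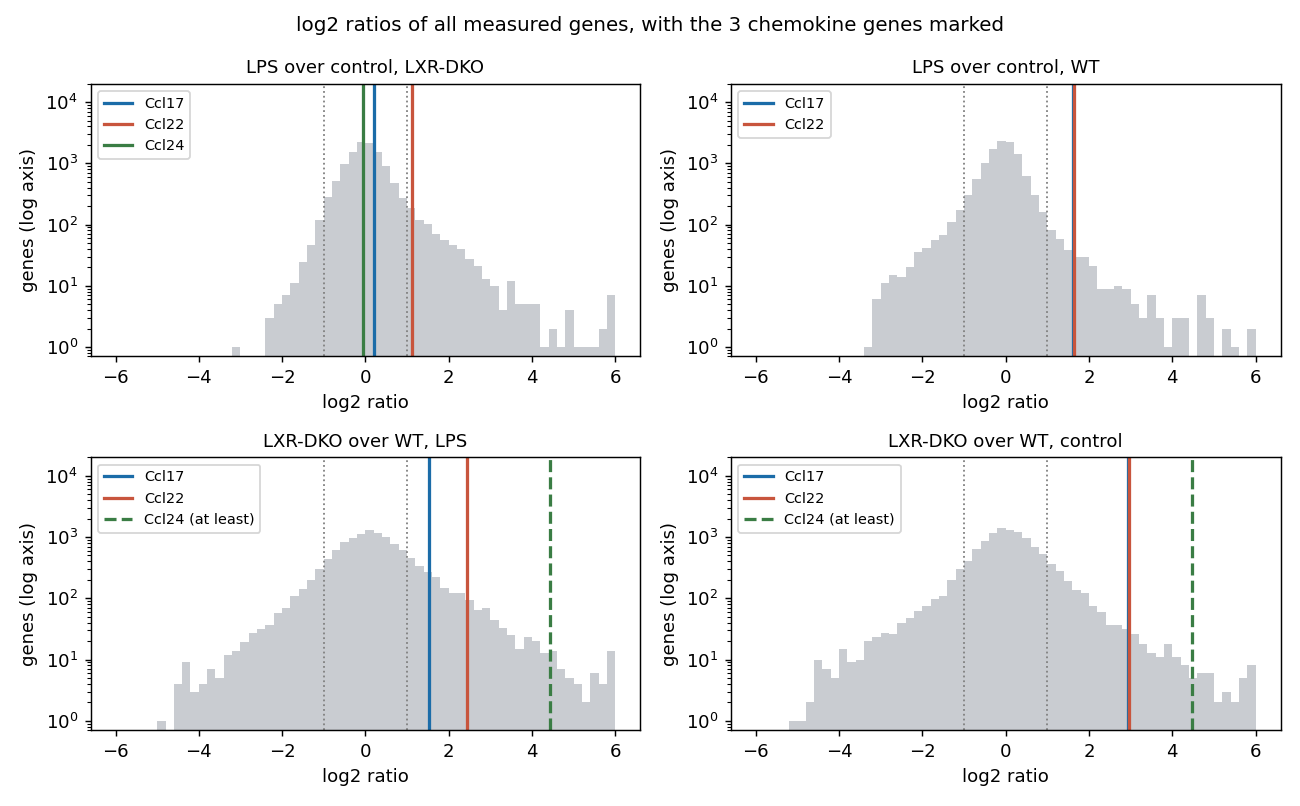
Number of genes (log axis) by log2 ratio in the 4 comparisons, with Ccl17, Ccl22 and Ccl24 as vertical lines, dashed where the ratio is a lower limit, dotted lines at a 2-fold difference, and ratios beyond 6 drawn at 6. The chemokine genes lie to the right in the genotype comparisons, between 1.54 and 4.47, and Ccl17 and Ccl24 lie near 0 for LPS over control in LXR-DKO cells.

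The LPS comparison asked how the maturation stimulus acted on each genotype, and it shares its arrays with the genotype comparison, so the ratios are not independent. In LXR-DKO cells only Ccl22 of the 3 genes was at least 2-fold higher with LPS, at 2.19-fold (log2 ratio 1.13), where 6.23% of 11793 measured genes passed 2-fold upward and 1.82% downward. Ccl17 was 1.15-fold higher (0.20) and Ccl24 1.03-fold lower (-0.048), both within the spread between probe sets of 0.42. In WT cells Ccl17 was 3.05-fold higher with LPS (1.61) and Ccl22 3.13-fold (1.65), where 2.93% of 11449 measured genes passed 2-fold upward and 4.79% downward. Ccl24 has no WT ratio, since both WT arrays were below the floor.

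The log2 response to LPS in LXR-DKO minus that in WT was -1.41 for Ccl17, 3.25 times the spread between probe sets of 0.43, and -0.52 for Ccl22, 1.19 times that spread. A difference of -1 or lower was seen for 1.99% of 10764 genes, and 7.69% were at 1 or higher. In signal units the picture differs between the genes. Ccl17 was higher with LPS by 1073.7 units in LXR-DKO cells and by 1916.2 in WT cells, while Ccl22 was higher by 4686.2 in LXR-DKO cells and by 1085.4 in WT cells. Thus for Ccl22 the step with LPS was smaller in LXR-DKO cells as a ratio and larger as a signal difference, and for Ccl17 it was smaller in LXR-DKO cells on both scales. The highest signal of any probe set on the LXR-DKO LPS array was 12798.4, and whether bright signals such as that of Ccl17 are compressed was not tested.

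LXR-DKO cells without LPS had more signal than WT cells with LPS for each gene. The LXR-DKO control signal was 2.52 times the WT LPS signal for Ccl17, 2.48 times for Ccl22 and at least 22.2 times for Ccl24. From end to end, LXR-DKO LPS over WT control was 8.84-fold for Ccl17, 16.9-fold for Ccl22 and at least 21.5-fold for Ccl24.

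The other CC chemokine genes, of which 15 of the 18 listed were named on the array, mostly did not share this pattern. Ccl12, a monocyte attractant of the mouse, was the only one 2-fold or more higher in LXR-DKO cells in both conditions. Its signal was 75 in LXR-DKO LPS and 108.6 in LXR-DKO control, against 1.6 in WT LPS and 10.2 in WT control. Without LPS, 2 of 11 measured were 2-fold or more higher and 4 lower, beside 12.7% and 9.28% of all measured genes. With LPS 1 of 10 was higher and 1 lower, beside 17.8% and 8.76% of all measured genes. In both conditions together, 10.3% of all measured genes were higher. For these CC chemokine genes the median log2 ratios were -0.13 without LPS and -0.26 with LPS. Both turned positive when arrays were scaled to the hybridisation controls. The genes lower without LPS were those of the inflammatory chemokines Ccl2, Ccl3, Ccl4 and Ccl7, with log2 ratios from -4.06 for Ccl2 to -2.80 for Ccl7. Ccl5 had a log2 ratio of 3.12 without LPS, beside 2.94 for Ccl17, and of 0.31 with LPS.

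With LPS in LXR-DKO cells, 5 of 11 measured CC chemokine genes passed 2-fold upward and 0 downward, beside 6.23% and 1.82% of all measured genes. Their median was 0.30, or 2.002 at a floor of 177.4, and Ccl3 at 3.67 and Ccl2 at 3.35 led. In WT cells 1 of 9 passed upward, Ccl5 at 4.82, and 0 downward, beside 2.93% and 4.79% of all measured genes. The median of those 9 was 0.27. Ccl11, the eotaxin that like CCL24 binds CCR3, was below the floor on all 4 arrays, at 1.7 or less. Ccl26, the third eotaxin gene and the neighbour of Ccl24, was not named by a probe set of its own.

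**Figure D3:**
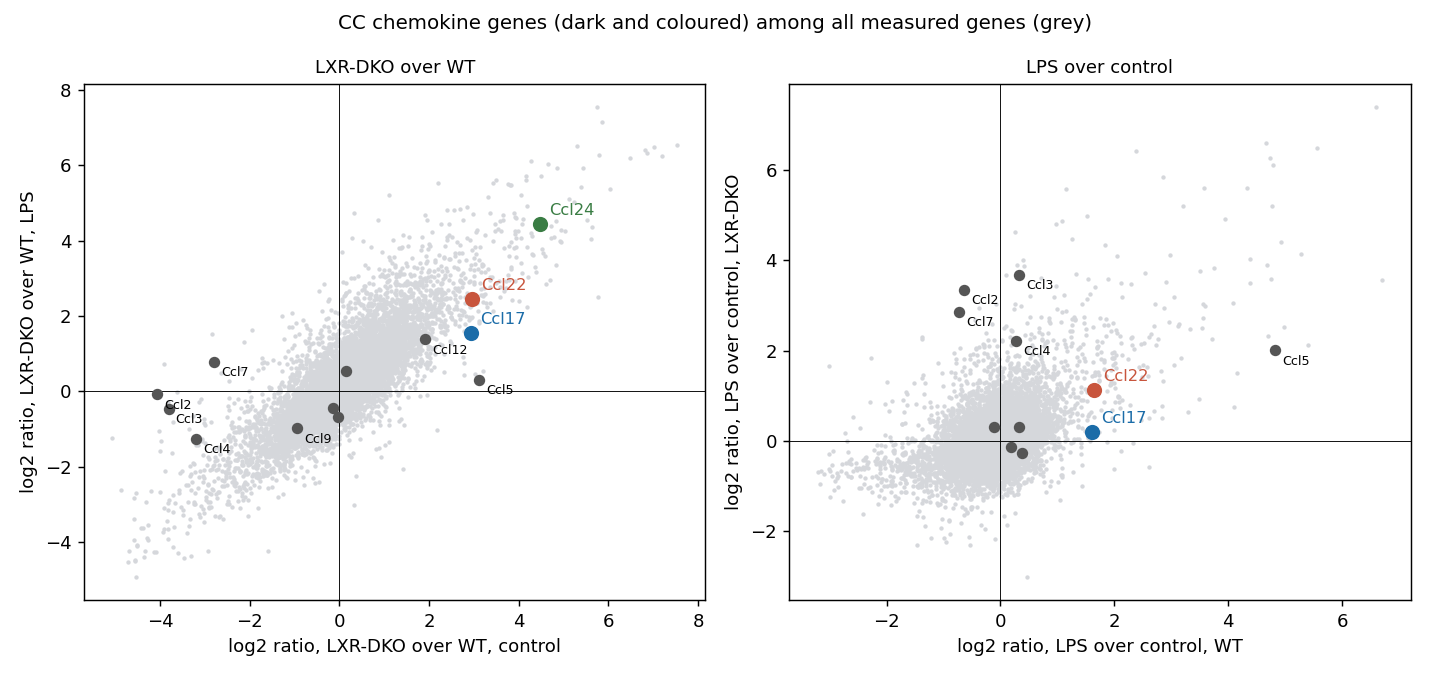
Log2 ratios of all measured genes (grey), other CC chemokine genes (dark) and Ccl17, Ccl22 and Ccl24 (coloured). At left LXR-DKO over WT without LPS runs along x and with LPS along y, and at right LPS over control in WT runs along x and in LXR-DKO along y. Ccl2, Ccl3, Ccl4 and Ccl7 lie left of 0 in the genotype plot, where Ccl17, Ccl22 and Ccl24 lie at the upper right, and Ccl24 has no point at right.

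The receptors of these ligands gave little or no signal. Ccr3 was below the floor on all 4 arrays, at 2.6 or less, and Ccr4 reached 35.5 in LXR-DKO LPS and lay below the floor in LXR-DKO control at 16.9, WT LPS at 17.1 and WT control at 14.1. Of the scavenging receptors, which take up chemokines without signalling to migration, Ackr2 reached 44 in LXR-DKO LPS by its brightest probe set and 30 in LXR-DKO control by another, and was below the floor in both WT groups. Ackr1 lay between 32.5 and 54.2 on all arrays, and Ackr4 between 29.1 and 84.1 by its brightest probe set. Another Ackr4 probe set was below the floor on all 4 arrays, at 16.3 or less, and the last in WT LPS alone, at 26.9. Dpp4, a surface protease known to trim CCL22, had signals of 937.4 in LXR-DKO LPS and 1085.2 in LXR-DKO control, against 8.8 in WT LPS and 15.9 in WT control. Its log2 ratio was thus at least 5.02 with LPS and at least 5.23 without, and the other 3 Dpp4 probe sets were also higher in LXR-DKO cells.

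The neighbours on the chromosomes were set beside them. Cx3cl1, the membrane-bound chemokine gene between Ccl22 and Ccl17, had signals of 731.4 in LXR-DKO LPS, 207.7 in LXR-DKO control, 31.3 in WT LPS and 54.0 in WT control. LXR-DKO over WT gave log2 ratios of 4.55 with LPS and 1.94 without, in the same direction as both neighbours, and another Cx3cl1 probe set gave 2.96 and 1.22. Its LPS response was 1.82 in LXR-DKO cells and -0.79 in WT cells, where Ccl17 and Ccl22 had 1.61 and 1.65. Ciapin1, next after Ccl17, had log2 ratios of LXR-DKO over WT of 1.22 with LPS and 0.44 without by its brightest probe set, while others gave 1.35 and 1.56 or 0.77 and -0.095. The genes beyond it, Coq9 at 0.25 and -0.13 and Polr2c at -0.14 and -0.13, were within the spread between probe sets. On the other side of Ccl22, Pllp had -0.81 or beyond with LPS and 0.21 without, and Arl2bp had 1.09 and 0.92. Beside Ccl24, the probe sets of Rhbdd2 disagreed in direction, at -2.12 or beyond with LPS and -1.66 without by the brightest, 0.58 and 0.80 by another and -0.29 and 0.069 by the last. Hip1 had 0.33 and -0.52 by its brightest probe set, -1.34 and -0.38 by another and -0.21 and -0.25 by one more. Tmem120a, farther along, had -1.15 and -1.61. Rspry1, beyond Arl2bp, had -0.47 with LPS and -0.093 without, and Pom121, beyond Hip1, had 0.45 and 0.40, all within the spread between probe sets. Pllp, Arl2bp, Tmem120a, Rspry1 and Pom121 were added after their values were seen. Por, a further neighbour, was not named by a probe set of its own.

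Lists for 3 pathways known to drive these chemokine genes were counted, to be read against the 17.8% of all measured genes with LPS and 12.7% without that were 2-fold or more higher in LXR-DKO cells. In the list for IL-4, IL-13 and TSLP signalling, 14 of 15 genes were named on the array. With LPS, 4 of 12 measured were higher in LXR-DKO cells by 2-fold or more and 2 lower (median log2 ratio 0.36, or 0.10 after 75th percentile scaling). Without LPS, 4 of 11 were higher and 1 lower, with a median of 0.53, or of -0.021 when probe sets with a suffix were left out. The factor gene Irf4 had signals of 2473.5 in LXR-DKO LPS and 2150.8 in LXR-DKO control, against 578.9 in WT LPS and 313.1 in WT control, with log2 ratios of 2.10 with LPS and 2.78 without, while its other probe set gave 0.80 and 2.35. Kdm6b, a histone demethylase, stood at 2.17 with LPS and 1.67 without by its brightest probe set. Another gave 0.14 and 0.45, both under 2-fold. The last gave at least 0.98 and at least 0.52, with both WT signals below the floor. The kinase gene Jak3 stood at 2.44 and 2.17. The Il7r chain of the TSLP receptor went the other way, at -1.70 with LPS and -3.05 without. So did the IL-13 receptor gene Il13ra1, at -1.54 and -0.50, and its other probe sets gave -1.55 to -0.36 with LPS. Stat6 itself had log2 ratios of 0.14 and -0.041, within the spread, and the cytokine gene Il4 was below the floor on all 4 arrays, while Il13 reached 41.6 in LXR-DKO LPS alone.

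In the list for GM-CSF receptor signalling, all 9 genes were measured. With LPS 1 was 2-fold or more higher in LXR-DKO cells and 0 lower, beside 17.8% and 8.76% of all measured genes. Without LPS 1 was higher and 1 lower, beside 12.7% and 9.28% of all measured genes. The higher one was Jak2 in both, with signals of 5481.9 in LXR-DKO LPS and 4232.3 in LXR-DKO control, against 1254.8 in WT LPS and 630.4 in WT control. The feedback gene Socs3 was the lower one, at a log2 ratio of -1.34 without LPS, or -0.43 and -1.06 by its other probe sets. Stat5a stood at 0.34 without LPS by its brightest probe set and at 1.26 by its other probe set. The receptor genes Csf2ra, Csf2rb and Csf2rb2 had log2 ratios of LXR-DKO over WT between -0.36 and 0.24 in both conditions.

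Of the NF-kappaB subunits and their non-canonical activators, 8 of 10 genes were measured, and 5 were 2-fold or more higher in LXR-DKO cells with LPS and 4 without, with 0 lower in either. The medians were 1.35 with LPS and 1.16 without, set against 0.15 and 0.045 for all measured genes. They were lowest at 0.75 with LPS, using probe sets without a suffix, and at 0.53 without LPS, at a floor of 177.4. Relb, a subunit known for its part in DC maturation, had signals of 890.1 in LXR-DKO LPS and 346.5 in LXR-DKO control, against 143.2 in WT LPS and 75.2 in WT control. The kinase gene Map3k14 stood at 2.47 with LPS and 1.44 without, and Nfkb2 at 2.15 and 1.42. With LPS over control, 3 of these 8 were 2-fold or more higher in LXR-DKO cells and 1 of 8 in WT cells, against 2 of 9 and 1 of 9 in the GM-CSF list and 1 of 12 and 0 of 11 in the IL-4 list, with 0 lower in any, where 6.23% and 2.93% of all measured genes were higher.

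Genes of alternative activation, known from macrophages exposed to IL-4, were mostly higher in LXR-DKO cells. With LPS, 8 of 11 measured were higher by 2-fold or more and 0 lower (median log2 ratio at least 2.52, the limit for Arg1), and without LPS 6 of 10 were higher and 1 lower, with a median of 2.63, beside 17.8% and 12.7% of all measured genes higher by as much. Retnla, a secreted resistin-like protein, had signals of 2204.4 in LXR-DKO LPS and 4228.8 in LXR-DKO control, against 3.7 in WT LPS and 10.3 in WT control. The lectin genes Mgl2 and Clec10a stood at 5.53 and 4.26 with LPS and at 3.42 and 3.46 without. The mannose receptor gene Mrc1 was lower without LPS, at -2.36.

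DC maturation genes, a list that shares Cd40 with the NF-kappaB list and holds no chemokine measured here, were mostly higher in LXR-DKO cells too. With LPS 10 of 11 were higher by 2-fold or more and 0 lower, beside 17.8% and 8.76% of all measured genes, with a median of 2.38. Without LPS 6 of 11 were higher and 1 lower, Cd200 at -2.78, beside 12.7% and 9.28% of all measured genes. The list's median without LPS was 1.65, or 0.69 at a floor of 177.4. LPS responses of the listed genes had medians of 2.18 in LXR-DKO cells and 0.40 in WT cells, whereas Ccl17 had 0.20 and 1.61 and Ccl22 1.13 and 1.65. Ccr7, whose product steers mature DCs into lymphatics, had log2 LPS responses of 2.45 in LXR-DKO cells and 0.19 in WT cells, and Cd83 of 2.18 and 0.82.

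The genes with the pattern most like each chemokine gene were found by the root mean square difference of log2 signals, centred on each gene's mean over the 4 arrays, among 11862 named genes. With 4 arrays many genes come close, so the likeness is a description only. Nearest to Ccl17 were Jak2 at a distance of 0.25 log2 units, the interleukin 1 receptor gene Il1r1 at 0.26, Irf4 at 0.27 and the tight junction gene Tjp1 at 0.30. Nearest to Ccl22 were the Schlafen gene Slfn1 at 0.14, with a WT control signal below the floor, the gelatinase gene Mmp9 at 0.28, Relb at 0.30 and the interferon-induced gene Ifi27l2a at 0.33. Nearest to Ccl24 were Fndc5 at 0.11, the protease gene Ctse at 0.19, the phospholipid transfer protein gene Pltp at 0.21 and the kallikrein gene Klk1b27 at 0.24. The WT signals of Ccl24, Fndc5 and Klk1b27 were all below the floor and set to it, so the distances from Ccl24 depend on the floor. The other probe set of Ctse had 333.4 and 629.8 in LXR-DKO LPS and control, against 172.6 and 327.4 in WT LPS and control, a smaller difference. The distance between Ccl17 and Ccl22 was 0.40, which made Ccl22 the 14th nearest of 12477 genes to Ccl17.

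**Figure D4:**
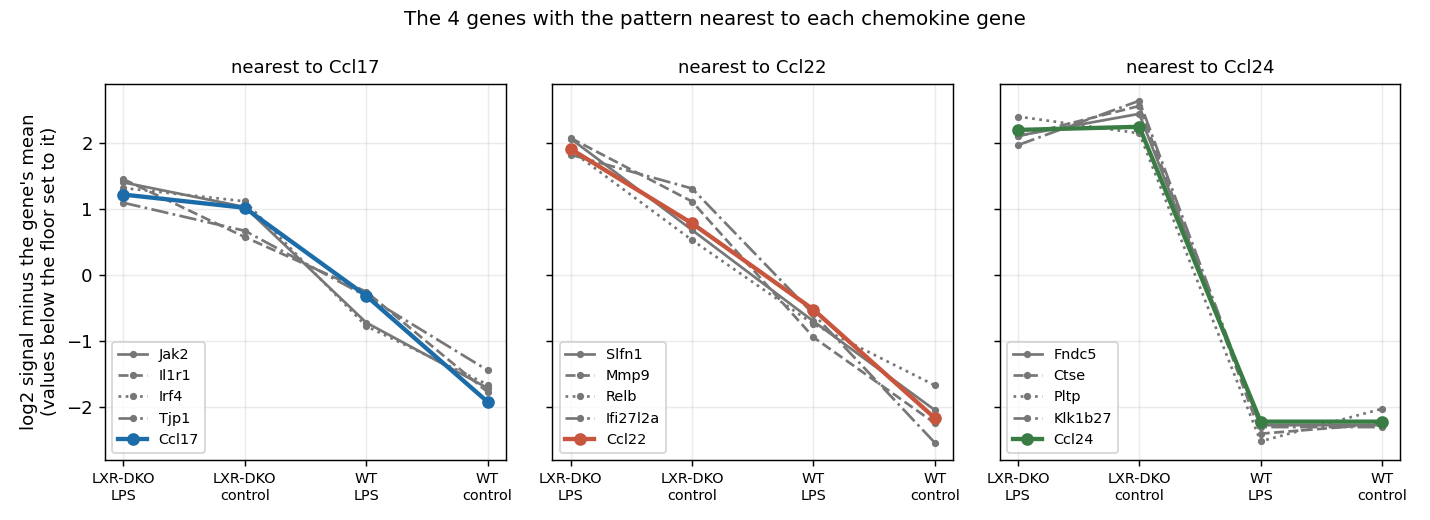
Log2 signal minus each gene's mean over the 4 arrays, with values below the floor set to it, for each chemokine gene (coloured) and its 4 nearest genes (grey). The panels of Ccl17 and Ccl22 step down from LXR-DKO LPS to WT control, and that of Ccl24 has 2 levels, high in LXR-DKO and low in WT.

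Markers of several cell types moved with genotype beside these chemokine genes, and in bulk samples fewer cells of a type and less RNA per cell cannot be told apart. The labelled cell type was met in part: Itgax, which encodes CD11c, had signals of 3848.1 and 4404.5 in LXR-DKO LPS and control, against 6093.0 and 5012.2 in WT LPS and control. The DC factor gene Zbtb46 had 393.3 and 305.9 in LXR-DKO LPS and control, against 29.0 and 39.4 in WT LPS and control. The summed signal of 14 conventional DC markers, Irf4 and Dpp4 among them, was 38369.7 and 35256.6 in LXR-DKO LPS and control, against 21772.0 and 21044.4 in WT LPS and control, with 14 and 13 at or above the floor against 10 and 12. Flt3 was below the floor in every group but LXR-DKO LPS.

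The summed signal of 12 macrophage and monocyte markers was 36031.8 and 42104.6 in LXR-DKO LPS and control, against 39611.3 and 28058.4 in WT LPS and control. Cd14, of that list, was higher with LPS in both genotypes. It had 9570.3 and 4081.6 in LXR-DKO LPS and control, against 10288.6 and 2727.4 in WT LPS and control. Within that list the complement genes C1qa, C1qb and C1qc were between 2566.9 and 6280.6 in LXR-DKO cells and at most 108.4 in WT cells, the macrophage receptor gene Trem2 was at 220.3 and 286.4 in LXR-DKO LPS and control against 2762.6 and 4302.2 in WT LPS and control, and Cd163 was below the floor throughout. Neutrophil markers, 10 in all, summed to 27282.3 and 22915.4 in LXR-DKO LPS and control, against 12910.2 and 9778.2 in WT LPS and control, with 9 and 10 at or above the floor against 4 and 5, and the granule genes Ngp and Ltf below it in both WT groups. Mmp8, of the same list, went the other way, with 3769.1 and 3829.7 in LXR-DKO LPS and control against 9716.4 and 7882.0 in WT LPS and control, most of both WT sums. The 11 markers of mast cells, basophils and eosinophils, the last of which CCL24 attracts, summed to 2762.3 and 1963.5 in LXR-DKO LPS and control, against 507.6 and 681.8 in WT LPS and control, with 10 and 9 at or above the floor against 4 and 6, and the eosinophil granule genes Prg2 and Epx below it in both WT groups. B cell markers, 9 in all, summed to 6268.2 and 3612.8 in LXR-DKO LPS and control, against 469.5 and 527.2 in WT LPS and control, with 8 and 7 at or above the floor against 3 and 4, and Ms4a1, Cd79a and Cd79b below it in both WT groups. Cd22, of the same list, was not higher, with 249.4 and 128.2 in LXR-DKO LPS and control against 264.1 and 213.3 in WT LPS and control. Ighm, with 4119.2 and 2911.2 in LXR-DKO LPS and control, made up most of both LXR-DKO sums. Another Ighm probe set had 22.6 and 10.1 there, against 165.9 and 652.7 in WT LPS and control. The other Ighm probe sets that reached the floor were higher in LXR-DKO cells. The 8 markers of T and NK cells summed to 688.0 and 246.1 in LXR-DKO LPS and control, against 270.6 and 259.0 in WT LPS and control, with Cd3e and Cd4 below the floor on all 4 arrays. Thy1, at 504.4, made up most of the LXR-DKO LPS sum, and Cd3g at 29.3 and Cd3d at 31.6 were barely above the floor there. The part of these cell types in the chemokine results was not tested.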

How the data were processed

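Transcripts were measured on 1 single-channel array for each of the 4 groups. Per the labels, the array maker's kit gave biotin-labelled cRNA. MAS5 produced the signals, per the submitters' processing notes, and its version and settings are not given in the sources used here. The authors deposited linear intensity values, 1 for each probe set on an array. After leaving out 2% of values at each end their mean was about 200.0 on every array.

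Of 45101 probe sets, 64 manufacturer's controls were left out. The platform annotation gave 1 symbol to 34945 of the other 45037, several to 932 and listed no gene for 9160. Only probe sets with 1 symbol were named, and 0 symbols changed when 34754 gene numbers were matched to RefSeq for GRCm38.p6. A gene was represented by its brightest probe set and counted as measured when at least 1 array of the comparison reached the floor of 28.9, the pooled median. Lower values were set to the floor before log2 was taken. No p-value was computed, since a group has 1 array, and genes at least 2-fold higher or lower were counted. Counting and pattern matching were tested on simulated data with large changes put into genes well above the floor. The simulated noise was smaller than the spread between probe sets, so this checked the code and not the precision of the values.

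The members and gene lists were chosen with earlier results of these data known. Named genes were the members, all listed receptors and neighbours, up to 4 leading members of each other list with any needed to show both directions, and the 4 genes nearest in pattern to each member. Values of list members given for contrast were chosen after they were seen. Alternatives were 75th percentile scaling, quantile normalization, centring on the median ratio, floors of 8.8 and 177.4, log2 of the signal plus 16 without a floor, the median over probe sets and probe sets without a suffix. Scaling to hybridisation controls was added after seeing the data. Analyses ran in Python 3.11.15 with pandas 2.3.3 and numpy 2.4.6.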

Additional observations from a re-analysis of the deposited data

Results flagged for a closer look

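Genes of the pathway and marker lists, neighbours and genes nearest in pattern whose ratios had opposite signs in 2 groups, each beyond the spread between probe sets, were listed. The differences were not tested, since each group has 1 array. The log2 response to LPS was 3.35 in LXR-DKO cells and -0.64 in WT cells for Ccl2, 2.86 and -0.73 for Ccl7, 1.82 and -0.79 for Cx3cl1, and -0.49 and 0.55 for the IL-13 receptor gene Il13ra1. It was -0.54 and 0.48 for Pllp, the neighbour of Ccl22. Among cell type markers it was 1.77 and -0.40 for Blk, 0.50 and -0.95 for Ighm, 1.45 and -1.36 for Cpa3, 1.11 and -0.81 for Mcpt8, 1.90 and -0.54 for Kit and 0.47 and -0.89 for Itgae. Pllp was below the floor in LXR-DKO LPS, and Blk, Mcpt8 and Itgae in WT LPS, so those responses are limits. LXR-DKO over WT gave a log2 ratio of 0.79 with LPS and -2.80 without for Ccl7. It was 0.83 and -2.78 for the inhibitory ligand gene Cd200 and 1.53 and -0.90 for Kit. All values listed here are those of the brightest probe set of a gene. The other Kit probe set reached the floor in LXR-DKO LPS alone, at 38.3, so it shows neither reversal of Kit. Ccl17 and Ccl22 had the same sign in both groups of each contrast. For Ccl17 the LPS response in LXR-DKO cells, 0.20, was within the spread between probe sets, so its sign there is not settled.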

How the results depend on the processing

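Under 8 other settings and 1 added after seeing the data, Ccl17 and Ccl22 kept their directions and their side of the 2-fold threshold in all 4 comparisons and moved by less than the spread between probe sets. The floors of 8.8 and 177.4, the median over probe sets and probe sets without a suffix could not move them. Each gene has 1 probe set, without a suffix, and its signals were above 177.4 on every array. Only the other settings could change these values. LXR-DKO over WT for Ccl17 ranged from 1.24 to 1.90 with LPS and from 2.75 to 3.20 without, and for Ccl22 from 2.14 to 2.80 and from 2.76 to 3.21. The limit for Ccl24 follows the floor by construction: LXR-DKO over WT with LPS was 6.14 at the floor of 8.8, 1.81 at the floor of 177.4 and 5.04 without a floor, and without LPS it was 6.17 and 1.86 at those floors. Scaling moved the median of genes that reached the floor on every array, for LXR-DKO over WT with LPS, by -0.30 at the 75th percentile and by 0.36 with hybridisation controls.

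Counts over all genes moved more. At the floor of 8.8, 1541 genes passed 2-fold upward and 560 downward with LPS in LXR-DKO cells, 833 and 1235 in WT cells, and 1863 were lower in LXR-DKO over WT without LPS. At the floor of 177.4 the numbers higher and lower were 324 and 114 with LPS in LXR-DKO cells, 188 and 150 in WT cells, 947 and 685 for LXR-DKO over WT with LPS, and 744 and 611 without. For LXR-DKO over WT with LPS, 75th percentile scaling gave 1724 lower and hybridisation control scaling 3261 higher and 589 lower. Genes higher were 67.03% of those counted there, but 47.1% and 84.7% under these scalings, with 55.4% after quantile normalization. They were 57.7% for LXR-DKO over WT without LPS, but 44.1% and 74.3%, and for LPS over control in WT 38.01%, but 50.6% under 75th percentile scaling, 29.1% with hybridisation controls and 55.6% at the floor of 177.4. No paired analysis was possible because each group has 1 array.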
